A study of Homo sapiens with 4 samples.

Results

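The 17 genes described here were under 1 FPKM in both libraries without doxycycline and at 2 FPKM or more in both libraries with it, out of 23143 gene symbols measured. FPKM counts sequenced fragments per kilobase of transcript, scaled to the mapped fragments of the library. They were FAM151A, F10, RNASE1, SLC13A2, MSMB, CYMP, ANPEP, TIMP3, REG4, MBOAT4, MYO1A, B4GALNT2, LEAP2, SOST, ST6GALNAC1, FBLN2 and PLXNC1. Polyadenylated RNA came from A549, an established human lung adenocarcinoma line, in 4 libraries. The 2 noDOX libraries had GATA4 at its normal level and, per the design text, received vehicle. In the 2 DOX libraries doxycycline, a tetracycline antibiotic used to drive inducible genes, gave overexpressed GATA4. The labels give neither dose, duration nor clone, and doxycycline-treated cells without inducible GATA4 were not analysed here, so GATA4 and doxycycline cannot be told apart. The labels do not say whether replicates were separate cultures, and every p-value therefore reflects only how far these 4 libraries scatter, possibly for technical reasons.

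GATA4 is a zinc finger transcription factor that binds short DNA words built around GATA. In embryos it acts in heart and endoderm, and in the adult gut it helps keep the absorptive character of the upper small intestine. Several of the 17 genes are known from gut, liver or kidney epithelium, among them genes of the brush border, the layer of microvilli on absorptive cells. The epithelial keratin genes KRT8 and KRT18 were at 1728 FPKM or more in all libraries. The lung lineage genes NKX2-1, SFTPB, SFTPC and SCGB1A1 were under 1 FPKM in each, but not all lung genes were low. Of 22 lung alveolar and airway genes measured, 14 were under 1 FPKM in all libraries, while CAV1 was between 38.9 and 50.8 FPKM. GATA4 itself was at 12.2 and 14.5 FPKM in noDOX libraries 1 and 2, and at 75.0 and 48.0 FPKM in DOX libraries 1 and 2. The groups did not overlap, in the direction the labels give. GATA4 missed the threshold over all genes tested (limma, adjusted p = 0.289).

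Since all 17 genes were picked by their FPKM in these same libraries, their values are a description and carry no test. Their counts and medians are not evidence that GATA4 acts on them. In total 10262 genes were under 1 FPKM in both noDOX libraries, and 27 of these reached 2 FPKM in both DOX libraries. Of the 27, the rule set aside 5 small RNA genes and 5 genes by name (SLC7A8, CD36, CNTFR, TAC3 and SPARC). Of the 9016 low genes outside the small RNA classes, 0.189% thus belong to the set. The mirrored rule, low with doxycycline and at 2 FPKM or more without, found 13 genes. The label "switched on" describes the crossing of these thresholds rather than a start from nothing, because 15 of the 17 genes were above 0 in all 4 libraries.

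**Figure D1:**
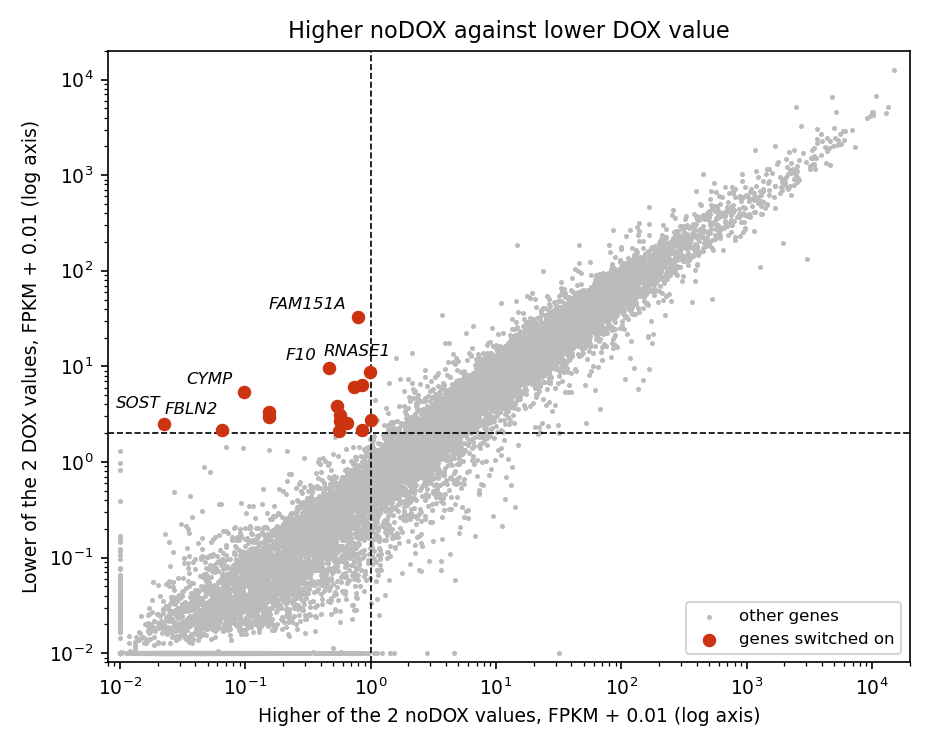
Each point is 1 gene, with the higher of its 2 noDOX values on the x axis and the lower of its 2 DOX values on the y axis, both as FPKM + 0.01 on log axes. Dashed lines mark the thresholds of 1 and 2 FPKM, small RNA genes and the 5 genes set aside by name are not drawn, and the 17 genes (red) fill the upper left, with FAM151A the highest at 32.5 FPKM in its lower DOX library.

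FAM151A, known as a membrane protein gene of kidney and small intestine, had the highest value in its lower DOX library. It was at 0.758 and 0.787 FPKM in noDOX libraries 1 and 2 and at 41.3 and 32.5 FPKM in DOX libraries 1 and 2. The DOX libraries were far higher, with no overlap, and values within each group were close. In bulk RNA, fewer cells with a transcript and less of it per cell cannot be told apart. Mean FPKM was 0.773 ± 0.020 (SD, n = 2) and 36.9 ± 6.2 (SD, n = 2), a ratio of 47.7. Among the 10289 genes at 2 FPKM or more in both DOX libraries, small RNA genes apart, FAM151A stood at percentile 81.0 in DOX library 1 and 73.4 in DOX library 2. It made up 24.4 and 31.7% of the summed FPKM of the 17 genes there. Its relative FAM151B was near 1 FPKM throughout, at 1.37 and 1.04 FPKM without and 0.942 and 0.898 FPKM with doxycycline. Some exon sequence of FAM151A overlaps ACOT11, which runs the opposite way, and whether strand was used in counting is not stated in the labels. ACOT11 stayed between 1.14 and 1.83 FPKM in the 4 libraries.

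SLC13A2, ANPEP and MYO1A are, like FAM151A, known from the surface of kidney or gut epithelium. SLC13A2, a sodium-coupled transporter of citrate and dicarboxylates, was at 0.835 and 0.170 FPKM without and at 8.04 and 6.37 FPKM with doxycycline. Its noDOX libraries differed 4.92-fold, while its DOX libraries differed 1.26-fold. All 4 other SLC13 transporters in the table stayed under 1 FPKM in every library. ANPEP encodes aminopeptidase N, an ectoenzyme of the brush border that trims peptides. It was at 0.529 and 0.386 FPKM without and 5.01 and 3.85 FPKM with doxycycline, a ratio of means of 9.68. MYO1A, the brush border myosin, started closest to the threshold, at 0.992 and 0.895 FPKM, and was at 4.91 and 2.72 FPKM with doxycycline. The ratio of its means was 4.04, and 4 of the 7 other class I myosins were already at 1 FPKM or more in a noDOX library, among them MYO1E at 110 and 140 FPKM. MYO1A also shares exon bases on the same strand with its neighbour TAC3, at 0.228 and 0.326 FPKM without and 8.06 and 6.45 FPKM with doxycycline, so fragments of the pair can be assigned to either gene. The part of TAC3 in the MYO1A values was not tested.

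**Figure D2:**
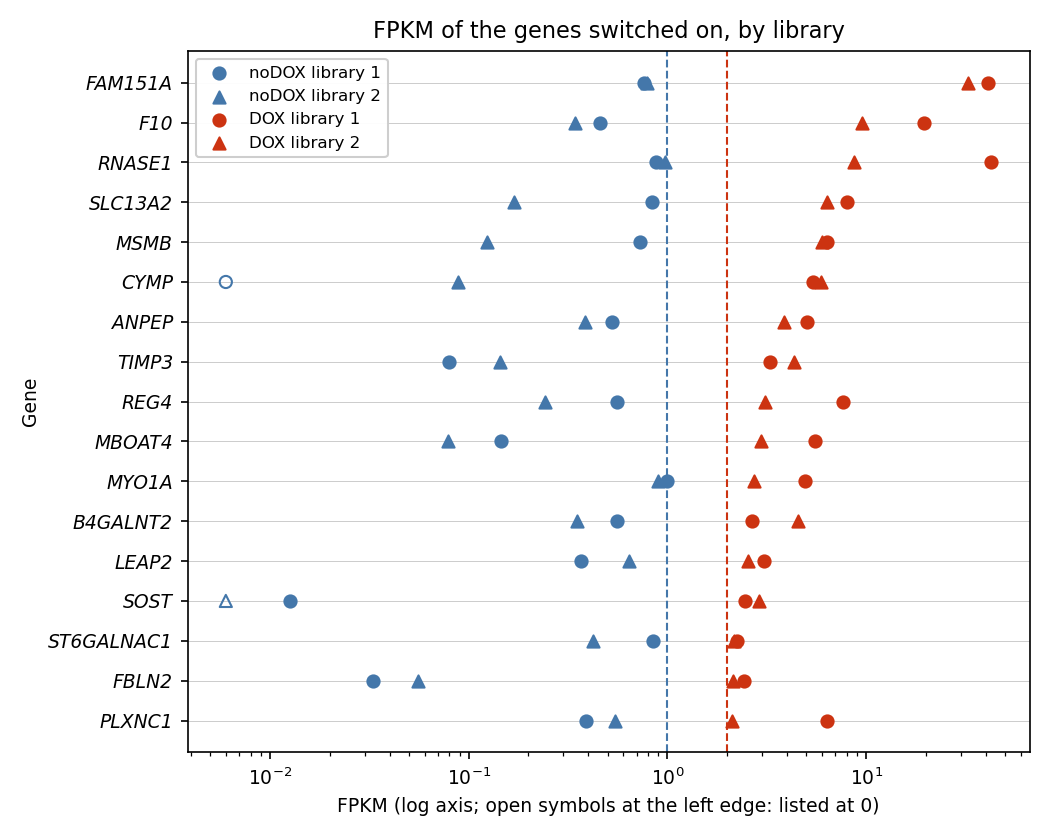
FPKM of the 17 genes (rows) on a log axis in noDOX (blue) and DOX (red) libraries, circles for library 1 and triangles for library 2, with open symbols at the left edge for a value listed at 0 and dashed lines at 1 and 2 FPKM. The DOX values of RNASE1 lie far apart, at 42.7 and 8.67 FPKM, while those of MSMB, at 6.33 and 6.02 FPKM, nearly coincide.

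Of the 6 genes for secreted proteins other than matrix proteins, F10 and RNASE1 had the highest DOX values. F10 encodes coagulation factor X, a protease proenzyme made mainly in liver, and was at 0.456 and 0.344 FPKM without and 19.5 and 9.57 FPKM with doxycycline. Mean FPKM was 0.400 ± 0.079 (SD, n = 2) and 14.5 ± 7.0 (SD, n = 2), a ratio of 36.2, although the DOX libraries differed 2.03-fold. F7, the gene next to F10 on chromosome 13, encodes coagulation factor VII and was at 1.28 and 1.35 FPKM without and 2.12 and 1.31 FPKM with doxycycline. On the other side PROZ, for protein Z, stayed under 1 FPKM in all 4 libraries. Transcripts of enzymes for the vitamin K-dependent modification of F10 protein were present in both groups. GGCX was between 9.48 and 11.3 FPKM and VKORC1 between 62.8 and 140 FPKM.

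RNASE1, a secreted ribonuclease of the pancreatic type, was at 0.876 and 0.970 FPKM without and 42.7 and 8.67 FPKM with doxycycline. Its value in DOX library 1 was far above that in DOX library 2, and the DOX libraries differed 4.93-fold, the widest gap among the 17 genes. MSMB, a small cysteine-rich protein of seminal plasma and mucosal secretions, was at 0.728 and 0.124 FPKM without and 6.33 and 6.02 FPKM with doxycycline. Its transcript is short, 488 bases at most in GENCODE release 29, and its noDOX libraries differed 5.86-fold. REG4, a lectin of gut secretory cells, was at 0.557 and 0.242 FPKM and then 7.66 and 3.11 FPKM. The 4 other REG lectins in the table stayed under 1 FPKM in all libraries. LEAP2, a peptide of liver and gut that blocks the ghrelin receptor, was at 0.368 and 0.639 FPKM without and 3.05 and 2.54 FPKM with doxycycline. SOST encodes sclerostin, a WNT inhibitor best known from bone, and was at 0.0126 FPKM and listed at 0 without, against 2.47 and 2.88 FPKM with doxycycline. Its receptors LRP4, LRP5 and LRP6 were at 2.21 FPKM or more in all 4 libraries, and LRP4 was at 2.21 and 3.76 FPKM without and 12.6 and 6.62 FPKM with doxycycline.

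TIMP3 and FBLN2 encode proteins of the extracellular matrix and were among the lowest of the set without doxycycline. TIMP3, an inhibitor of metalloproteinases that binds to matrix, was at 0.0800 and 0.143 FPKM without and 3.30 and 4.31 FPKM with doxycycline, a ratio of means of 34.1. Its relatives TIMP1 and TIMP2 were far higher in both groups, between 120 and 135 FPKM and between 18.8 and 49.5 FPKM in turn. FBLN2, for the matrix glycoprotein fibulin 2, was at 0.0332 and 0.0557 FPKM and then 2.42 and 2.13 FPKM, a ratio of 51.2. FBLN1, another fibulin, was between 32.1 and 38.9 FPKM in the 4 libraries. In both families the gene switched on thus stayed below a relative already present.

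MBOAT4, B4GALNT2 and ST6GALNAC1 encode membrane enzymes that modify other proteins or lipids in the endoplasmic reticulum or Golgi. MBOAT4, the ghrelin O-acyltransferase, was at 0.145 and 0.0786 FPKM without and 5.50 and 2.97 FPKM with doxycycline, a ratio of means of 37.9. Its substrate gene GHRL was at most 0.233 FPKM in any library, and the ghrelin receptor gene GHSR was listed at 0 in all 4. The exons of MBOAT4 overlap LEPROTL1 on the other strand, which was between 25.0 and 37.8 FPKM with overlapping groups. B4GALNT2 makes the Sda carbohydrate antigen of gut epithelium and was at 0.559 and 0.350 FPKM without and 2.67 and 4.53 FPKM with doxycycline. Here DOX library 2 had the higher value, unlike most genes of the set. ST6GALNAC1, which makes the sialyl-Tn antigen on mucins, was at 0.847 and 0.421 FPKM and then 2.23 and 2.16 FPKM. Its log2 difference was 0.98, the smallest of the 17 genes.

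PLXNC1 was the 1 receptor gene, the plexin that binds semaphorin 7A. It was at 0.387 and 0.546 FPKM without and 6.36 and 2.11 FPKM with doxycycline, and its DOX libraries differed 3.02-fold. PLXNC1 shares exon bases with CEP83 on the other strand, listed in the table under its older symbol CCDC41, at 4.79 and 3.69 FPKM without and 3.12 and 4.57 FPKM with doxycycline. The groups of CCDC41 overlapped. F10, CYMP and PLXNC1 also share exon bases with RNA genes that were not matched by symbol. Its ligand gene SEMA7A stayed under 1 FPKM in all 4 libraries, whereas 7 of the 8 other plexins were at 1 FPKM or more in a noDOX library. CYMP is the human remnant of the gene for chymosin, a stomach protease of young mammals, and makes no protein. CYMP was listed at 0 in noDOX library 1 and at 0.0885 FPKM in noDOX library 2, against 5.39 and 5.94 FPKM with doxycycline. Its neighbours PROK1 and KCNA10 were at or near 0 in every library, at most 0.0410 FPKM.

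In units of log2(FPKM + 1), a scale that understates the change of low genes, the 17 differences between DOX and noDOX means ran from 0.98 to 4.41 with a median of 2.10. Over the 12504 genes tested, those averaging 1 FPKM or more, the median difference was -0.04. All 17 genes had that mean, which the rule itself fixes. The groups were separate, with DOX higher, in 14.7% of all genes tested, and the rule fixes this for the 17 as well. The lower DOX value was at least 5 times the higher noDOX value in 12 of the 17. Most of the set nevertheless stayed at modest levels, since 11 genes were under 4 FPKM in their lower DOX library. Only FAM151A was at 10 FPKM or more in both. Among genes at 2 FPKM or more in both DOX libraries the median of the DOX means was 13.2 FPKM, and 3 of the 17 (FAM151A, RNASE1 and F10) exceeded it.

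The DOX libraries did not carry the 17 genes equally. In 13 genes DOX library 1 had the higher value and in 4, CYMP, TIMP3, B4GALNT2 and SOST, DOX library 2 did. The ratio of library 1 to library 2 ran from 0.589 to 4.93 with a median of 1.26. For all genes at 2 FPKM or more in both DOX libraries the median ratio was 0.960, and 45.5% of them were higher in library 1. The ratios of RNASE1, PLXNC1, REG4, F10, MBOAT4 and MYO1A lay above the 95th percentile of those genes, 1.66, and 0 of the 17 lay below the 5th percentile, 0.552. The comparison genes were not matched to the 17 in level, their median DOX mean being 13.2 FPKM. How far low level or depth widens the ratios was not tested. GATA4 was also higher in DOX library 1, with a ratio of 1.56. Whether the amount of GATA4 has a part in the ratios was not tested. In the noDOX libraries 10 genes were higher in library 1 and 7 in library 2. Over 12112 genes outside the small RNA classes, the library 1 minus library 2 difference in noDOX correlated across genes, which are not independent replicates, at -0.76 with that in DOX. Of the 17 genes, 8 were higher in library 1 of both groups.

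**Figure D3:**
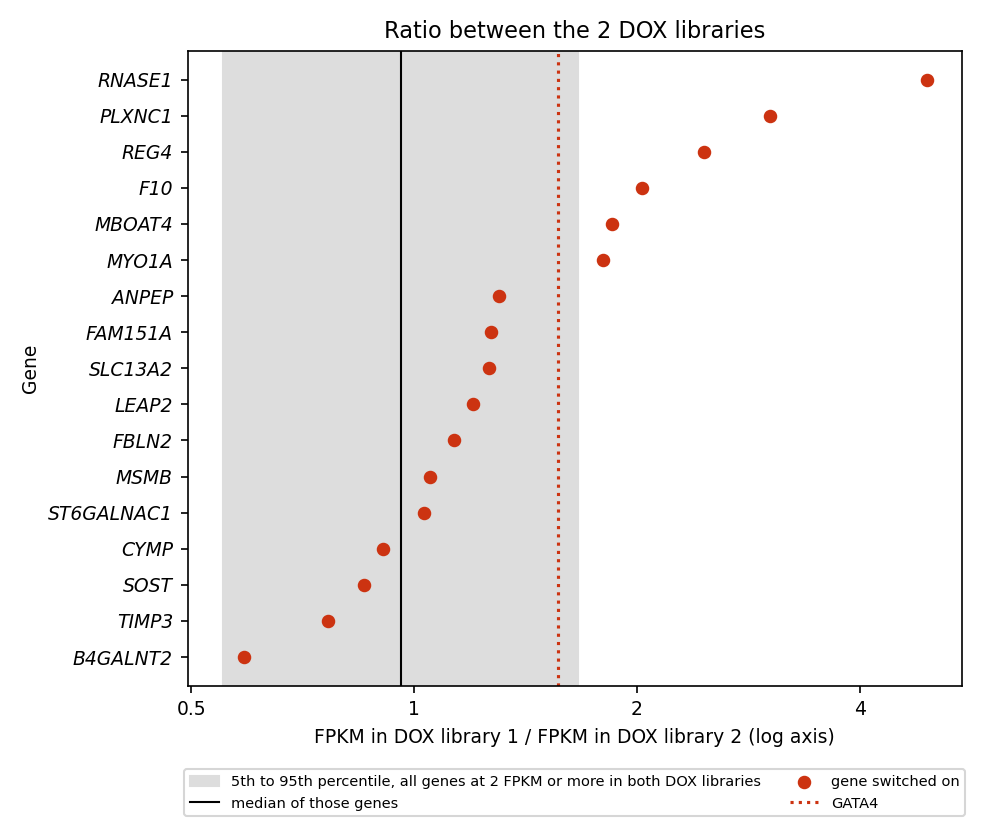
Ratio of FPKM in DOX library 1 to FPKM in DOX library 2 for each of the 17 genes (red points, log axis), with the 5th to 95th percentile (grey) and median (black line) of all genes at 2 FPKM or more in both DOX libraries, small RNA genes apart, and GATA4 (dotted). RNASE1 is at 4.93 and B4GALNT2 at 0.589, and 6 genes lie above the grey band.

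The lowest deposited FPKM give a rough estimate of depth. In genes with 1 GENCODE transcript, low values were multiplied by transcript length less 200 bases. The densest point of the products, the step, was taken as the worth of 1 fragment. Whether the values also pile up at multiples of the step was not tested. By this step the nominal depth was about 37600000 fragments in noDOX library 1, 43900000 in noDOX library 2, 41900000 in DOX library 1 and 27400000 in DOX library 2. By this estimate DOX library 2 was the shallowest, at 0.728 of the depth of noDOX library 1. How libraries were scaled to each other is not stated in the labels, so these depths are nominal. For the 3 members with 1 GENCODE transcript the step gives approximate fragments. SOST had about 1 and 0 fragments in the noDOX libraries and about 217 and 166 in the DOX libraries. MBOAT4 had about 7 and 5 without and 303 and 107 with doxycycline, and TIMP3 about 13 and 28 without and 609 and 520 with. For SOST no ratio is given, because its noDOX values rest on about 1 fragment by this step. For CYMP none is given because 1 noDOX library is listed at 0. Of 16 blood cell markers 5 were listed at 0 in all libraries, and their summed level was 32.5 to 33.0 FPKM without and 14.1 to 35.8 FPKM with doxycycline, nearly all from CD68, CD14 and LYZ. PTPRC, which defines leukocytes, was at most 0.00516 FPKM. The 10 fibroblast markers summed to 4.38 and 10.2 FPKM without and 2.40 and 3.16 FPKM with doxycycline, with DCN and FAP at 0 throughout, and the 10 endothelial markers to at most 1.25 FPKM with ERG at 0.

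Values close to the thresholds show how the set is bounded. Just inside the lower bound were MYO1A, RNASE1, ST6GALNAC1, SLC13A2 and FAM151A, whose higher noDOX values ran from 0.992 down to 0.787 FPKM. Just outside it, with higher noDOX values from 1.07 to 1.33 FPKM, were BIN2, CDRT1, PARD6B, WT1 and FBXW10. Near the upper bound PLXNC1, FBLN2, ST6GALNAC1, SOST and LEAP2 had lower DOX values of 2.11 to 2.54 FPKM. LOC641467, SOX17, LOC100289255 and OASL missed it, at 1.71 down to 1.42 FPKM. LOC100289255 was at 0.0598 and 0.0173 FPKM without and 2.80 and 1.43 FPKM with doxycycline, so DOX library 2 alone kept it out. When FPKM were rescaled to a common sum without small RNA genes, 13 of the 17 genes met the rule, FBLN2, MYO1A, PLXNC1 and RNASE1 did not, and CDRT1 did. Rescaled to a common upper quartile, 16 of the 17 met it together with BIN2, and RNASE1 did not.

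Promoter sequences of the set were searched for the words that GATA factors bind, AGATAA or AGATAG as well as TGATAA or TGATAG, on both strands. RefSeq windows on GRCh38.p14, from 250 bases before to 50 after an annotated start, were matched for 13 of the 17 genes, in 19 windows. CYMP, MBOAT4, MSMB and ST6GALNAC1 were not matched. Of all 35116 windows 25.0% held a GATA word, and of those of genes under 1 FPKM in both noDOX libraries 29.8% did. In the set it occurred in 7 windows, 36.8%. By gene these were 7 of 13 (FAM151A, F10, REG4, MYO1A, RNASE1, PLXNC1 and B4GALNT2), 53.8%, against 29.1% of all genes with a window and 35.0% of genes under 1 FPKM in both noDOX libraries. A match is a description of the letters and not a binding site. In 6 genes the word lay upstream of the start, in B4GALNT2 at the far end of the window (-245, counting bases from the start). Of the other 5, the windows of 4 genes with roles in gut, kidney or liver are shown 5′ to 3′ on the gene's strand, with the matched word in capitals. The windows are chr1:54623476-54623775 (minus strand) for FAM151A, chr13:113122549-113122848 (plus strand) for F10, chr1:119811411-119811710 (minus strand) for REG4 and chr12:57051149-57051448 (minus strand) for MYO1A.
FAM151A: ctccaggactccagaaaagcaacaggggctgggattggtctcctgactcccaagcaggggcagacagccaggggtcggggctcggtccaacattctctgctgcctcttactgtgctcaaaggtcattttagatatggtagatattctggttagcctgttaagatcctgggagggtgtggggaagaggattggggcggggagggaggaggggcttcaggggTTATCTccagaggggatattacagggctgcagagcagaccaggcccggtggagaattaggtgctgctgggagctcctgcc
F10: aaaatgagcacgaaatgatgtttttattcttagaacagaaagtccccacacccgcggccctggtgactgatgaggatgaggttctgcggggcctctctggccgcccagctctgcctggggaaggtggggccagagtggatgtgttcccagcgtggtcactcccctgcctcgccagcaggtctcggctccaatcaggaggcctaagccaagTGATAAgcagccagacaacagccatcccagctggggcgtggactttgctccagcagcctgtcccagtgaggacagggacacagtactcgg
REG4: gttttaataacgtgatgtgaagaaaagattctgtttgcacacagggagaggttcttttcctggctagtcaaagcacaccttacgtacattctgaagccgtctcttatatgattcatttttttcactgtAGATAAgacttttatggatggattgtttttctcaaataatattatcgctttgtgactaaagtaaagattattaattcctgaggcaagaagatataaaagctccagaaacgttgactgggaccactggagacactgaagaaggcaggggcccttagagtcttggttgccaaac
MYO1A: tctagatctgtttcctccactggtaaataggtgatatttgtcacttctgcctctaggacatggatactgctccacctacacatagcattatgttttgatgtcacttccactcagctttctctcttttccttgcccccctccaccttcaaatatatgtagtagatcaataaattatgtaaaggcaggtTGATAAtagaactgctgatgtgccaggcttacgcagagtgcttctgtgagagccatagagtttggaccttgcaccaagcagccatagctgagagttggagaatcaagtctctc
The first base of the word is at -30 in FAM151A, where the word lies on the opposite strand, at -40 in F10, at -122 in REG4 and at -63 in MYO1A. In PLXNC1, the fifth, it is at -123.

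The word TATAAA of the core promoter, searched on both strands, occurred in 4 of 13 genes, 30.8%, against 14.0% of all genes and 20.2% of genes under 1 FPKM in both noDOX libraries. Its first base is at -31 in REG4, at -32 in SLC13A2, on the opposite strand, and at -33 in LEAP2, which has a further match. In MYO1A it is at -220 of another start. A further word was searched in the same windows and is not reported here. The median GC content of the 19 windows was 57.7%, against 58.7% for all windows.

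The 17 genes were spread over 11 chromosomes. Chromosome 17 held 4 of them (SLC13A2, SOST, B4GALNT2 and ST6GALNAC1) and chromosome 1 held 3 (FAM151A, CYMP and REG4). The closest pair, SOST and B4GALNT2, lay 5.36 Mb apart on GRCh38, and 0 members were next to another member in the gene order of RefSeq. The nearest gene in the table on either side of each, 33 genes once TAC3 beside MYO1A is set aside, held 13 that were under 1 FPKM in all 4 libraries. Of the 18 that averaged 1 FPKM or more, 0 passed the limma threshold in either direction and 0 had an unadjusted p under 0.05, beside 0.024% of all genes that passed as higher and 0.064% as lower. DOX was higher without overlap in 2 of the 18, IGF2BP1 and C15orf38, against 14.7% of all genes tested. It was lower without overlap in 1, LARGE, against 17.3%. The DOX mean was higher in 14 of the 18 and lower in 4. The median log2 difference of the 18 was 0.14, beside -0.04 over all genes tested.

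Other genes of the tissues in which the 17 are known gave a mixed picture, and 0 passed the limma threshold. Across 10 lists of GATA, endoderm, gut, liver, kidney, gonad, heart, neuronal, lung and stress genes, 85 genes outside the set were tested, and 20 had an unadjusted p under 0.05, beside 793 of all 12504 genes tested. The 20 include GATA4, the induced gene itself. The lists were also chosen with earlier results of these data known, so no conclusion is drawn from this share. The smallest adjusted p was 0.219 (limma), for VTN. Of 35 genes of enterocyte absorption and brush border, ANPEP belonged to the set and 27 of the others were under 1 FPKM in all 4 libraries. This list does not include MYO1A, SLC13A2 or FAM151A, so it does not count the brush border genes of the set. The 6 others tested had a median log2 difference of 0.05, beside -0.04 over all genes tested. VIL1, for villin of the microvillus core, was at 2.75 and 3.21 FPKM without and 6.36 and 3.61 FPKM with doxycycline, and the folate transporter gene SLC46A1 was at 6.82 and 9.76 FPKM and then 15.2 and 9.12 FPKM. USH1C, a scaffold of brush border links, was at 11.5 and 20.1 FPKM without and 9.48 and 6.35 FPKM with doxycycline. Most genes of the list thus stayed low in both groups.

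In the liver list, which holds F10, 12 others were tested and their median log2 difference was -0.70. That median was -0.29 without DOX replicate 1, -0.35 without noDOX replicate 1 and -0.17 without a filter on low values. DOX was lower without overlap in 6 of the 12, against 17.3% of all genes tested, and higher in 1. That gene was VTN, for the adhesive plasma protein vitronectin, at 40.9 and 46.1 FPKM without and 217 and 185 FPKM with doxycycline. ASGR1, a hepatocyte receptor for glycoproteins, was at 5.26 and 3.99 FPKM and then 1.40 and 1.37 FPKM, and AHSG, for fetuin-A, at 1.97 and 2.56 FPKM and then 0.123 and 0.718 FPKM. VTN therefore differed in direction from most of the liver genes tested, while the rule fixed the direction of F10. The kidney proximal tubule list holds FAM151A but not SLC13A2, and 17 of its 24 other genes were under 1 FPKM in all libraries. Its 7 others tested had a median of -0.11, with GATM, a creatine synthesis enzyme, at a log2 difference of 1.28, PDZK1IP1 at -0.94 and the claudin gene CLDN2 at -2.23. Rescaled to a common sum, the kidney median was 0.02. CLDN2 was at 58.6 and 61.6 FPKM without and 5.64 and 24.5 FPKM with doxycycline. Among endoderm transcription factors 11 were tested, with a median of 0.19 and a range from -0.37 to 0.90. Of these, 6 had a higher DOX mean, 4 of them without overlap, against 14.7% of all genes tested. The other 5 had a lower one, 2 of them without overlap, against 17.3%. The hepatocyte factor HNF4A had a log2 difference of 0.90 and SOX17 of 0.82.

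The remaining lists held 0 genes of the set. GATA3 and GATA2, relatives of GATA4, had log2 differences of -0.63 and -0.17. Among 6 tested gonadal genes the median was 0.24, and -0.03 with FPKM rescaled to a common sum, with WT1 at 1.07, SOX9 at 1.31 and INHBB at -0.96. SOX9 was at 1.61 and 3.07 FPKM without and 13.7 and 3.49 FPKM with doxycycline, and its difference was 0.46 without DOX replicate 1 and 2.17 without DOX replicate 2. INHBB was at 27.1 and 25.5 FPKM and then 7.19 and 23.1 FPKM, with -0.18 and -1.73 in the same order. For both genes the value thus rests largely on DOX library 1. WT1, a zinc finger factor of kidney and gonad, was at 1.29 and 1.31 FPKM without and 3.65 and 3.98 FPKM with doxycycline, just outside the rule. Cardiac genes, classical targets of GATA4, were under 1 FPKM in all libraries for 20 of 25, and the 4 tested had a median of -0.47, with TNNI3 at -0.56, TNNC1 at -0.64 and NKX2-5 at -0.37. The 11 tested neuronal genes had a median of -0.60, with CHGB at -1.84, SNAP25 at -1.07 and RBFOX3 at -1.26. The neuronal median was -1.09 without noDOX replicate 1 and -0.38 without noDOX replicate 2. RBFOX3 was at -1.83 and -0.69 in the same order. Without a filter on low values the cardiac median was -0.01 and the neuronal median -0.03. The 7 tested lung genes had a median of 0.03, and 4 of them had a higher and 3 a lower DOX mean. The 3 lower ones, MUC5B at -0.94, TP63 at -0.43 and CAV1 at -0.30, also had the smallest p, and the highest difference in the list was 0.73. The lung median was -0.22 without noDOX replicate 1 and -0.23 without DOX replicate 1. The 16 tested genes of doxycycline and mitochondrial stress had a median of -0.18, with GDF15 at -0.58, SHMT2 at -0.44 and TRIB3 at -0.54. Of the 16, 5 had a higher and 11 a lower DOX mean. The stress median was 0.27 without noDOX replicate 1 and -0.78 without noDOX replicate 2. The groups of TRIB3 overlapped, at 18.1 and 9.16 FPKM without and 6.65 and 10.9 FPKM with doxycycline.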

How the data were processed

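The 4 RNA-seq libraries of A549 cells came with 1 table in which the authors deposited FPKM, a level already divided by transcript length and library size. Per the submitters' processing notes TopHat2 2.0.10, Bowtie, Cufflinks 2.2.1 and Cuffdiff were used on hg19, while no source used here names the annotation, strand setting or library scaling. Columns were matched to samples by title.

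The 17 genes, the lists and the families were chosen with earlier results of these data known, and roles, families and motif words after the genes were known. Genes averaging 1 FPKM or more were fitted with limma 3.58.1 in R 4.3.3 on log2(FPKM + 1), with a mean-variance trend, 2 residual degrees of freedom, two-sided p-values, and a threshold of 0.05 after Benjamini-Hochberg adjustment. An exact permutation test of 2 against 2 libraries cannot go below p = 0.33. The fit was checked on simulated data. Every gene of the set was named, with values in all libraries, together with 5 genes on each side of each threshold and up to 3 others per list with the smallest p, except a few genes that are not reported here. Gene order and promoters came from RefSeq (GRCh38.p14), transcripts and exon overlaps from GENCODE release 29, both matched by symbol. Depth was estimated from 1-transcript genes over 800 bases. Alternatives covered thresholds, scaling, pseudocount, filter, moderation, small RNA genes, a replicate block and each library left out.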

Additional observations from a re-analysis of the deposited data

How the results depend on the processing

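The number of genes meeting the rule, 17, was 6 with a bound of 0.5 FPKM and 69 with one of 2 FPKM without doxycycline, and 58 with a bound of 1 FPKM and 6 with one of 5 FPKM with doxycycline. Leaving out 1 library, which drops a condition, gave 22 to 39 genes, all 17 among them: 27 without noDOX replicate 1, 30 without noDOX replicate 2, 22 without DOX replicate 1 and 39 without DOX replicate 2. Both rescalings kept the number within 1.5-fold. The median log2 difference of the 17, 2.10, was 3.86 with a pseudocount of 0.1 and 2.65 with 0.5, and 1.93 to 2.39 with 1 library left out. Over all genes 11 passed the limma threshold, 10 of them small RNA genes. That number was 0 without a filter on low values, 1 without small RNA genes and 51 to 61 with 1 library left out. With the replicate number as a block it was 65.

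Libraries share a replicate number only, and numbers 1 and 2 deviated in opposite directions in noDOX and DOX (correlation over all tested genes -0.35). With the crossed pairing, added after the data were seen, the block gave 7 calls. Of the list genes and of the neighbouring genes, 0 passed (limma) under each alternative run for them, the block included. GATA4 kept its direction in all 11 alternatives, with log2 differences of 1.78 to 2.41, and missed the threshold in each (limma, adjusted p 0.129 to 0.734). Median differences of the lists moved more: those of endoderm, gonadal, GATA, stress, lung and enterocyte genes changed sign with a library left out. Rescaled to a common sum, those of gonadal (-0.03) and kidney genes (0.02) changed sign, and without a filter that of gonadal genes (-0.01). The named list genes kept their direction with a library left out in every such fit that held them. AHSG and TP63 fell below the filter without noDOX replicate 2, and SOX17 without DOX replicate 2, so they were not fitted there. GATA2, USH1C, VIL1, SLC46A1, CLDN2, SOX9, INHBB, TNNC1, NKX2-5, SNAP25, RBFOX3, TP63, GDF15, SHMT2 and TRIB3 moved by over 1.5 times. Depth limits the lowest noDOX values, where SOST rests on about 1 fragment by the estimated step.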
